A study of Mus musculus with 16 samples.

Results

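Chromatin accessibility was compared between LPS-stimulated bone marrow-derived macrophages that had been pretreated with the LXR agonist T0901317 (T0) and those pretreated with vehicle. A peak of the LPS list was called closed when no T0-LPS peak overlapped it by 1 bp or more, and a T0-LPS peak was called opened when no LPS peak overlapped it. Of 33181 LPS peaks, 3367 (10.1%) were closed, and of 31085 T0-LPS peaks, 1069 (3.44%) were opened. The peaks that overlapped exactly 1 peak of the other list, in both directions, numbered 29050 and were compared by score and width. The other 764 LPS peaks and 966 T0-LPS peaks were split or merged between the lists and were only counted as shared. The 4 lists of the study together hold 129656 peaks.

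ATAC-seq measures open chromatin as DNA that the Tn5 transposase can cut. Marrow of young adult female C57BL/6J mice was grown in medium with L-cell supernatant, deprived of serum, and treated on day 8 with 500 nM T0 or DMSO for 3 h. The LPS and T0-LPS cultures then received LPS at 10 ng/mL for 2 h with the agonist or vehicle still present, while the vehicle (Veh) and T0 cultures were harvested without LPS. The protocol shared by all samples also names a second agonist, GW3965, but the treatment labels of these groups give T0. Each group had 4 libraries of 50000 cells, and 1 peak list was called on the 4 libraries together. A difference between lists therefore has no replicate error, no test was possible, and every statement below describes pooled lists. The study kept only peaks at regions that carry H3K27ac or H3K4me2 in other macrophages, so that the lists hold marked promoters and enhancers of macrophages alone. All cells are wild type, and in such bulk libraries fewer cells with an open site cannot be told apart from less opening per cell.

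The LXRs are nuclear receptors that sense oxysterols and bind DNA with RXR, typically at DR4 elements, in which AGGTCA half-sites are spaced by 4 bp. Their agonists induce genes of cholesterol efflux and fatty acid synthesis in macrophages and repress many genes induced through TLR4, the receptor for LPS, which signals through NF-kB, AP-1 and interferon regulatory factors. The lists had the marks of macrophages: 13 of 13 macrophage marker genes, among them Csf1r, Spi1 and Adgre1, had a peak within 1 kb of a transcription start site (TSS) in both lists. The counts were 0 of 4 for T cell, 0 of 4 for fibroblast, 1 of 4 for B cell (Ms4a1) and 1 of 5 for neutrophil (S100a8) markers, the same in both lists. The Y chromosome held 8 peaks in each list although the mice are described as female, and the origin of these peaks was not tested.

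The central 200 bp of 8 peaks are printed because the results below turn on them. Shared peaks are called strengthened or weakened when their score differed by 20 or more percentile points between the lists. The first 4 are the highest-scoring opened or strengthened peaks at LXR target genes, read at the T0-LPS peak. The next is the strongest opened peak at a place where the LPS list skips no peak number, chosen after its values were seen. The last 3 are the strongest closed peak and the 2 most weakened peaks at inflammatory genes, read at the LPS peak. Sequences are from the plus strand of GRCm38 (mm10) in RefSeq's assembly. Capitals mark AGGTCA half-sites on either strand and DR4 matches with up to 2 mismatches. NF-kB, AP-1 (TGACTCA or TGAGTCA) and PU.1 (GAGGAAGT) matches were searched as well and none lies in these 8 windows. The NF-kB pattern required GGG at its start and CC at its end, and looser NF-kB sites were not searched.
Abca1, strengthened, chr4:53217926-53218125: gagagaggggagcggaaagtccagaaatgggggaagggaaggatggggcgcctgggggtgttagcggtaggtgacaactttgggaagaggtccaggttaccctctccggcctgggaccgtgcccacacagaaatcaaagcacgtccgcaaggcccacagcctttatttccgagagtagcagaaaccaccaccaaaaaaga
Srebf1, strengthened, chr11:60210451-60210650: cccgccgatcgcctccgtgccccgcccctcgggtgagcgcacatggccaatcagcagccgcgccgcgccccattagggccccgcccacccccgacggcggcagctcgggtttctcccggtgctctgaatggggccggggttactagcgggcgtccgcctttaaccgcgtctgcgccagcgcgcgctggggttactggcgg
Mertk, strengthened, chr2:128698741-128698940: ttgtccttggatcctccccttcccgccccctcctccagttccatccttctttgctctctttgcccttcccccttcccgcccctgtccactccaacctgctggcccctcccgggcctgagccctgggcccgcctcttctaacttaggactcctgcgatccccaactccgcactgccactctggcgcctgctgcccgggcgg
Abcg1, opened, chr17:31075536-31075735: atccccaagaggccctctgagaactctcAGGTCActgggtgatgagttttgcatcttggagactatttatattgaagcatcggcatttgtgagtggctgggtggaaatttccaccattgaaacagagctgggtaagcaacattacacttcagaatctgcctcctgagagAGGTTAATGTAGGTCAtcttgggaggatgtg
Scd4, opened, chr19:44314939-44315138: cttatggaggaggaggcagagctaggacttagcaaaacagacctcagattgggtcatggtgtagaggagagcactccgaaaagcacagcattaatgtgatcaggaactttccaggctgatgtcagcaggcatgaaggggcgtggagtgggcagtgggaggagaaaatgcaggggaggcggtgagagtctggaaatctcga
Ptgs2, closed, chr1:150151278-150151477: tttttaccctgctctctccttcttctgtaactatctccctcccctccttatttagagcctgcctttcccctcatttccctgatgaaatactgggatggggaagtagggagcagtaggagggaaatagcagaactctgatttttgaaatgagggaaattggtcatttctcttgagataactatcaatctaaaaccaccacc
C3ar1, weakened, chr6:122852797-122852996: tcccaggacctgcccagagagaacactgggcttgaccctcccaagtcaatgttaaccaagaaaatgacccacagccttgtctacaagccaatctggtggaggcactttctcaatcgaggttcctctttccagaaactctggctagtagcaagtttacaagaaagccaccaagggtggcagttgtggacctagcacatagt
Il1b, weakened, chr2:129380292-129380491: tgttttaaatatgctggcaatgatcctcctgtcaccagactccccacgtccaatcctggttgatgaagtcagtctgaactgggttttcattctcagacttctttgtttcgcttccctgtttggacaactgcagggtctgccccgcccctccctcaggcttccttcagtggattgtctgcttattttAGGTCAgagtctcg

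In the Abcg1 window a DR4 match with 1 mismatch begins at base 170, and a second half-site match begins at base 29. The Il1b window holds a single half-site at base 187. The other 6 windows hold no such match, which says only that these letters do not occur there. Over all LPS peaks, 11.4% held a half-site and 1.92% a DR4 match with up to 2 mismatches in their central 200 bp.

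Most peaks found in only 1 of the lists were weak, whether closed or opened. The score is a whole number given by the peak caller, and the files do not define it. Such scores usually grow with sequencing depth, which is unknown for these libraries. The median score was 112 for closed peaks and 357 for the LPS peaks that were not closed, with median widths of 213 and 389 bp. Opened peaks were alike, with a median score of 99 and a median width of 207 bp. In the weakest decile of the LPS list 51.9% of peaks were closed (95% Wilson interval 50.2 to 53.6), whereas from the sixth decile upward the share never exceeded 0.535%. In the weakest decile of the T0-LPS list 20.7% of peaks were opened. Wilson intervals here and below cover counting error only.

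**Figure D1:**
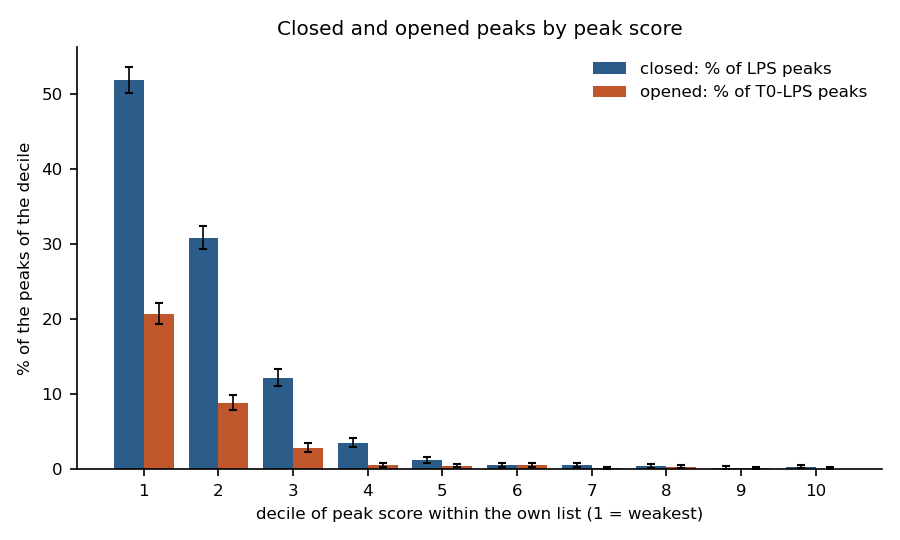
Bars give the percent of LPS peaks that were closed (blue) and of T0-LPS peaks that were opened (orange) in each decile of peak score within the own list, with 95% Wilson intervals. Closed peaks make up 51.9% of the weakest LPS decile and 1.15% of decile 5.

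There were 3.15 closed peaks per opened peak, so that closed peaks made up 75.9% of both kinds. The LPS list is longer by 2096 peaks, and since most shared peaks pair 1-to-1, the balance of closed to opened peaks largely restates the list lengths. When the LPS list was cut to its 31085 highest-scoring peaks, as many as the T0-LPS list holds, 2190 peaks were closed and 1942 opened, counts that equal lengths bring close together by construction. The effect of sequencing depth on list length was not tested. Of the closed peaks, 54 lay within 100 bp of a T0-LPS peak, and of the opened peaks, 27 lay within 100 bp of an LPS peak. Peak numbers in each list run along the genome with gaps where a called peak was filtered out. At 2056 closed peaks (61.1%) and 612 opened peaks (57.2%) the neighbouring peaks of the other list carry consecutive numbers, so that no filtered peak can lie there. All but 1 of the 70 closed peaks with a score above 300 lay where the other list skips a number, and the same held for all but 1 of the 39 opened peaks above 255. These limits are the highest scores of closed and opened peaks at which no number is skipped, so the counts follow from that choice. For these strong peaks, loss of the peak and removal by the filter cannot be told apart.

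Among the 29050 shared peaks, score was compared as the percentile within the own list, and a change of 20 points or more was called weakened or strengthened. The median change was -1.76 points (interquartile range -7.99 to 2.78), and 73.1% of peaks changed by less than 10 points. On this scale 1283 peaks (4.42%) were weakened and 269 (0.926%) strengthened, so that 82.7% of called peaks were weakened. Ranked among the shared peaks alone, the median change was 0.07, with 714 peaks (2.46%) weakened and 612 (2.11%) strengthened, so that 53.8% were weakened. All 714 were weakened on both scales, and 259 peaks were strengthened on both. Because the T0-LPS list lacks many weak LPS peaks, its shared peaks sit at lower whole-list percentiles. Calls and medians below are on the whole-list scale unless they are said to be among shared peaks.

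Width changed with score. Shared peaks were narrower in the T0-LPS list in 63.9% of cases (63.3 to 64.5), with a median width of 387 bp without and 367 bp with T0. Weakened peaks had median widths of 313 and 273 bp and were narrower in 79.8%, whereas strengthened peaks had 303 and 314 bp and were narrower in 35.3%.

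**Figure D2:**
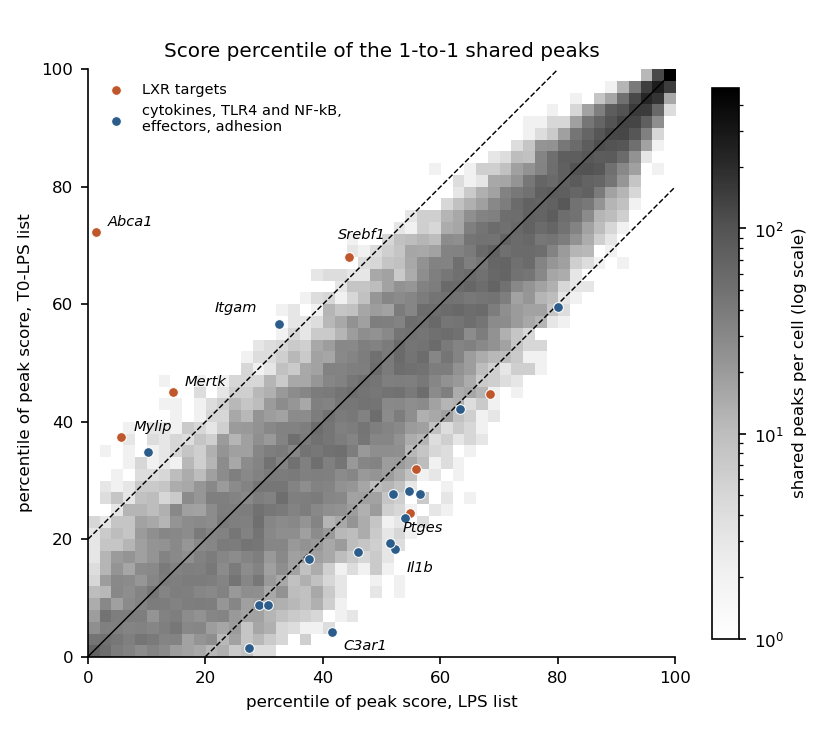
Score percentile of the 29050 shared peaks in the LPS list (x) and the T0-LPS list (y), with darker cells holding more peaks on a log scale. The solid line marks no change, dashed lines the 20-point calls, and coloured points the called peaks of LXR targets (orange) and inflammatory genes (blue). The Abca1 peak at 1.3 and 72.3 lies farther from the solid line than any other.

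At LXR target genes, which act in cholesterol efflux and lipid synthesis, single peaks were opened or strengthened, while the members differed in direction. Each peak was assigned to the protein-coding gene with the nearest TSS, within 100 kb. Of 66 shared peaks at 18 LXR target genes, 4 (6.06%) were strengthened, against 0.926% of all shared peaks, and 3 (4.55%) were weakened, against 4.42% of all. Among shared peaks the counts were 6 strengthened and 3 weakened, against 2.11 and 2.46% of all. Of their 73 T0-LPS peaks, 6 (8.22%, 3.82 to 16.8) were opened, against 3.44% of all T0-LPS peaks. Housekeeping genes had a similar opened share, 3 of 40 T0-LPS peaks (7.5%, 2.58 to 19.9), so it was not particular to LXR targets. Of the 74 LPS peaks of the LXR targets, 8 (10.8%, 5.58 to 19.9) were closed, close to the 10.1% of all LPS peaks. The median change of the shared peaks was 2.31 points on the whole-list scale, with a 95% order-statistic interval over peaks of -1.74 to 5.51 that spans 0, and 4.50 among shared peaks, against -1.63 and 0.16 over all assigned peaks. On the whole-list scale the medians of Lpl (-4.3), Pltp (-3.7), Tgm2 (-1.2) and Mylip (-0.2) were below 0. Counts this small leave wide intervals, and the list was compiled with earlier results of these data known.

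The largest change of any shared peak was at Abca1, the ABC transporter that loads cholesterol onto apolipoprotein A-I. Its peak 57.9 kb upstream of the TSS had scores of 150 and 277 without LPS (Veh and T0) and of 69 and 476 with it (LPS and T0-LPS). These are percentiles of 15.8, 45.7, 1.3 and 72.3, and the peak widened from 284 to 924 bp between the LPS and T0-LPS lists. It was thus higher with T0 both with and without LPS. Abca1 had 16 LPS peaks, more than any other of the LXR targets, and the remaining changes were mixed. Of the 14 shared peaks, the one 10 kb inside the gene was weakened (percentile 68.5 to 44.8) and had also been lower with T0 alone (69.5 in Veh and 36.7 in T0). The promoter peak differed little, at 83.4 and 85.7, and the median over the 14 peaks was 4.40 points. Closed peaks lay in an intron 4.32 kb downstream of the TSS (score 226) and 41.9 kb upstream (score 97). At the intronic closed peak the T0-LPS list skips a number, so it may have been filtered out there.

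Abcg1, the exporter that passes cholesterol to HDL, had the largest share of opened peaks among the LXR targets. Of its 6 T0-LPS peaks, 3 were opened, all in introns, and none of its 3 LPS peaks was closed. The strongest, 17.9 kb downstream of the TSS and printed above with its DR4 match, had a score of 242 and a width of 349 bp, was also in the T0 list and was in neither list without agonist. The LPS list skips 1 peak number between the neighbouring peaks, so a filtered peak cannot be told apart from an absent one there. The other two opened peaks, 1.15 and 3.05 kb downstream, had scores of 110 and 92 and were present in Veh and T0. The 3 shared Abcg1 peaks had changes of 3.80 to 8.30 points, all upward.

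Srebf1, Mylip and Mertk had 1 strengthened peak each. At Srebf1, the transcription factor that drives fatty acid synthesis, the intronic peak 10.1 kb downstream of the TSS stood at percentile 54.4 (Veh) and 64.9 (T0) without LPS and at 44.5 (LPS) and 68.1 (T0-LPS) with it. It was higher with agonist in both settings. At Mylip, which encodes the ligase that marks the LDL receptor for degradation, the peak 78.1 kb upstream had percentiles of 46.8 in Veh and 44.2 in T0, and of 5.70 in LPS and 37.4 in T0-LPS. At Mertk, a receptor for engulfing dead cells, the promoter peak went from 14.5 in LPS to 45.1 in T0-LPS, but from 46.8 in Veh to 13.4 in T0. The Mertk direction thus differed between the settings, and the Mylip peak differed little by agonist without LPS. Pltp, a phospholipid transfer protein, had an opened peak 9.30 kb upstream (score 127) that was present in T0 and absent from Veh.

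The stearoyl-CoA desaturase genes, which make monounsaturated fatty acids, formed a run of stronger peaks. Scd2 had a median change of 13.5 points, the highest on the whole-list scale of the 1971 genes with at least 4 shared peaks, and of 14.3 among shared peaks, where Fosb, Rassf5 and Pdgfb were higher. Its peak 26.5 kb upstream went from 67.0 (Veh) to 85.1 (T0) without LPS and from 70.5 to 89.1 with it, and the peak 9.44 kb upstream from 83.6 to 92.1 and from 84.0 to 96.0. The Scd2 promoter peak went the other way, from 59.2 in LPS to 53.4 in T0-LPS. Between Scd2 and Scd4 a peak 18.5 kb upstream of Scd4 was strengthened from 39.0 to 66.5. Beside it lay the strongest opened peak with no skipped number in the LPS list, with a score of 255, present in T0 and absent from Veh. A further opened peak lay 30.5 kb downstream of the Scd4 start (score 223), where the LPS list skips 2 numbers. At Scd1, in contrast, a peak 692 bp upstream was closed (score 217), and the 3 shared peaks had changes of 0.10 to 13.9 points.

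**Figure D3:**
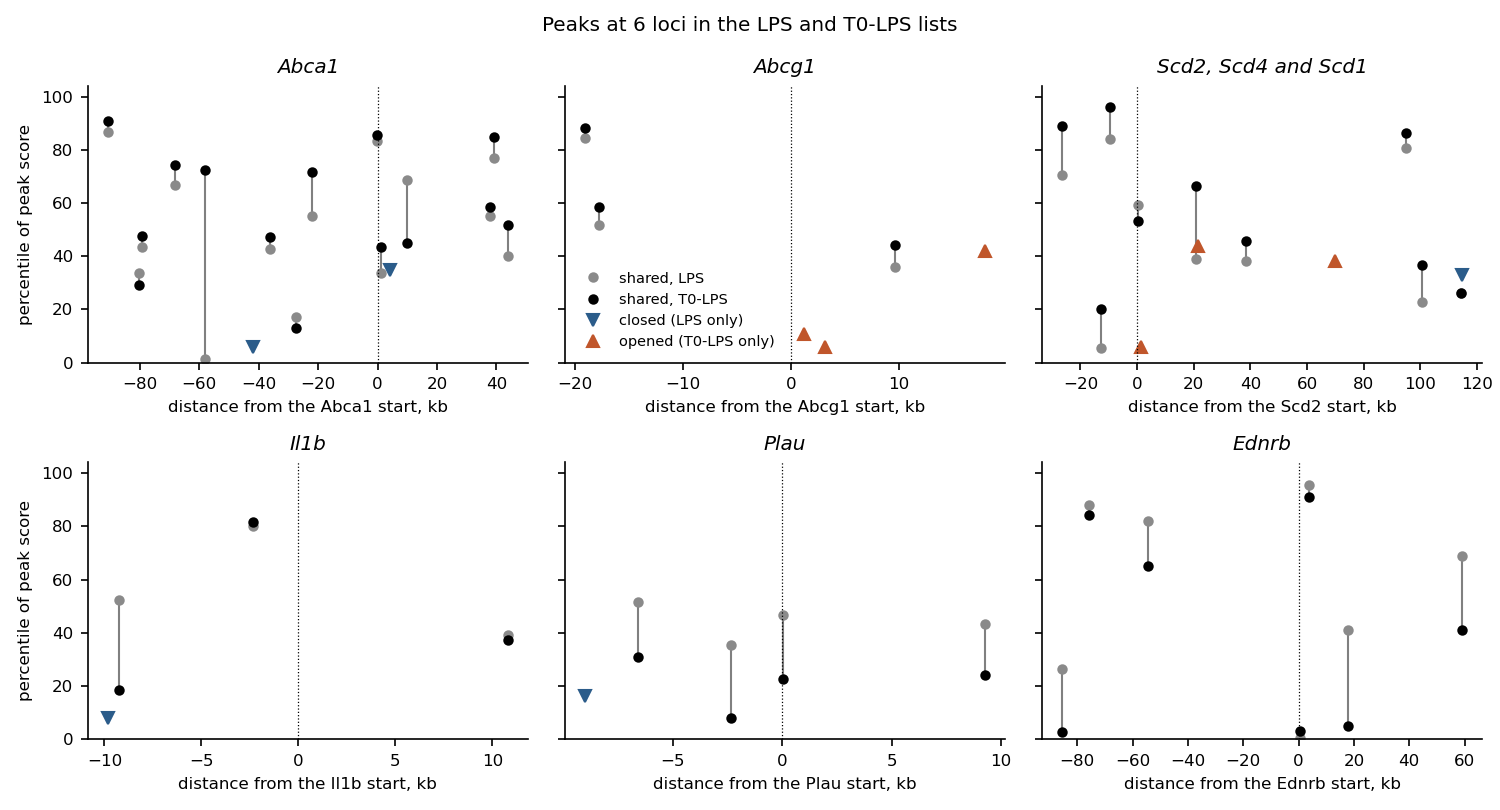
Score percentile of each peak against its distance from the gene start, in kb, at 6 loci. Grey and black points joined by a line are 1 shared peak in LPS and T0-LPS, blue triangles closed and orange triangles opened peaks; the Abca1 pair at 1.3 and 72.3 and the downward Plau pairs stand out.

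Among the LXR targets, weakened peaks lay at Tgm2, which encodes transglutaminase 2 (54.8 to 24.4), at Lpl, the lipoprotein lipase (55.8 to 32.0), and at Abca1 as given above. Closed peaks lay at Abca1, Apoe, Lpl, Nr1h3, Scd1 and Tgm2, with scores of 47 to 226.

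At cytokine and chemokine genes single peaks were weakened, while the weakened share and the median of the list were close to those of all assigned peaks. Of 78 LPS peaks at 23 genes, 7 (8.97%, 4.42 to 17.4) were closed, against 10.1% of all LPS peaks. Of 70 shared peaks 3 (4.29%) were weakened and 1 (1.43%) strengthened, against 4.42 and 0.926% of all shared peaks. Among shared peaks 2 were weakened and 2 strengthened, against 2.46 and 2.11% of all. The median change was -1.14 points on the whole-list scale and 1.60 among shared peaks, so its sign depended on the scale. The most weakened was the Il1b peak 9.25 kb upstream of the TSS, printed above; Il1b encodes interleukin-1 beta. Its score was 366 in Veh and 223 in T0, against 336 in LPS and 138 in T0-LPS, or percentiles of 49.2, 36.1, 52.2 and 18.4. The peak was lower with T0 in both settings, although it was wider in T0-LPS (391 bp) than in LPS (271 bp). A small peak beside it, 9.82 kb upstream with a score of 106, was present only in the LPS list and was closed. The other two Il1b peaks, 2.32 kb upstream and 10.8 kb downstream, changed by 1.30 and -1.60 points.

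The promoter peak of Il1rn, the interleukin-1 receptor antagonist, went from 54.7 to 28.2, and an intronic peak of the chemokine gene Ccl9 from 29.1 to 8.80. At Il12b, a subunit of interleukins 12 and 23, a peak 14.8 kb downstream went from 10.3 to 34.9. Closed peaks lay at Il12a (2 peaks, 1 of them at its promoter), Il10, Il27, Ccl12, Csf3 and Il1b, with scores of 74 to 139. None of the peaks of Il10, Il12a, Il27 and Il1b among these was in the Veh or T0 list, whereas those of Ccl12 and Csf3 were in Veh. Of all closed peaks 26.9% were in neither list, and of all LPS peaks 5.82%. At the Il10 and Il12a peaks the T0-LPS list skips a number, so a filtered peak cannot be told apart from an absent one there. Of 78 T0-LPS peaks of the list 4 (5.13%, 2.01 to 12.5) were opened, against 3.44% of all T0-LPS peaks. They lay at the Ccl5 promoter (score 55), Tnf (55), Il10 (74) and Csf3 (126).

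Effector genes had no opened peak among 53 T0-LPS peaks, an absence whose upper Wilson limit of 6.76% lies above the 3.44% of all T0-LPS peaks. Of 51 shared peaks, 4 (7.84%) were weakened, against 4.42% of all shared peaks, and none was strengthened. These were at Ptges, which makes prostaglandin E2 (51.5 to 19.3), at the Slc7a2 promoter, an arginine transporter (46.0 to 17.8), at Acod1, the itaconate enzyme (30.6 to 8.80), and at the scavenger receptor gene Marco (80.1 to 59.6). Among shared peaks 2 were weakened and 1 strengthened. The median was -1.46 points on the whole-list scale and 1.73 among shared peaks.

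Of 57 LPS peaks of these genes, 4 (7.02%) were closed, against 10.1% of all LPS peaks. Of these 4, 1 had the highest score of any closed peak at the inflammatory genes. It lay 51.3 kb downstream of the TSS of Ptgs2, the inducible cyclooxygenase, with a score of 1259, a percentile of 98.9 and a width of 708 bp. It was in none of the other 3 lists. Each of those lists skips 3 peak numbers between the neighbouring peaks, which lie 50.7 kb before and 13.0 kb after it. Whether the peak was absent or filtered out in the other lists cannot be told apart. The Ptgs2 promoter peak went from 85.1 to 81.1, and a peak 65.0 kb downstream was at 98.5 and 98.6.

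Genes of adhesion and granulocyte migration had a median change of -3.11 points on the whole-list scale and of -0.21 among shared peaks. Of 94 shared peaks, 5 (5.32%, against 4.42% of all) were weakened and 1 strengthened, or 4 and 2 among shared peaks. Of 105 LPS peaks 9 (8.57%, 4.57 to 15.5) were closed, against 10.1% of all LPS peaks. C3ar1, the receptor for complement C3a, had the most weakened peak of the inflammatory genes. That intronic peak, 3.27 kb downstream and printed above, went from 30.4 (Veh) to 9.6 (T0) without LPS and from 41.5 to 4.2 with it. A peak upstream of Ccrl2, a chemerin receptor, went from 54.0 to 23.6, and 2 peaks upstream of Itga4, the alpha-4 integrin, went from 56.5 to 27.7 and from 52.0 to 27.7. An intronic peak of Cd44, the hyaluronan receptor, went from 27.4 to 1.40. All 5 peaks were lower in T0 than in Veh as well, as were 86.0% of all weakened and 76.9% of all paired peaks on this scale.

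The integrin genes did not move one way. The promoter peak of Itgam, the alpha-M chain of the leukocyte integrin Mac-1, was strengthened from 32.5 to 56.7. Itgb2, its beta-2 partner chain, had 7 shared peaks with changes from -17.3 to 12.4 and a median of 0.40, and 1 weak closed peak (score 102). Closed peaks also lay at the formyl peptide receptor genes Fpr1 (2 peaks) and Fpr2, at Icam1, Itgb1, Plaur, Selplg and Sirpa, with scores of 71 to 165. Of 101 T0-LPS peaks of the adhesion and migration list, 6 (5.94%, 2.75 to 12.4) were opened, against 3.44% of all T0-LPS peaks. They lay at C3ar1, Vcam1, Itga4, Itga5, Itgal and Cd44, with scores of 49 to 168.

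**Figure D4:**
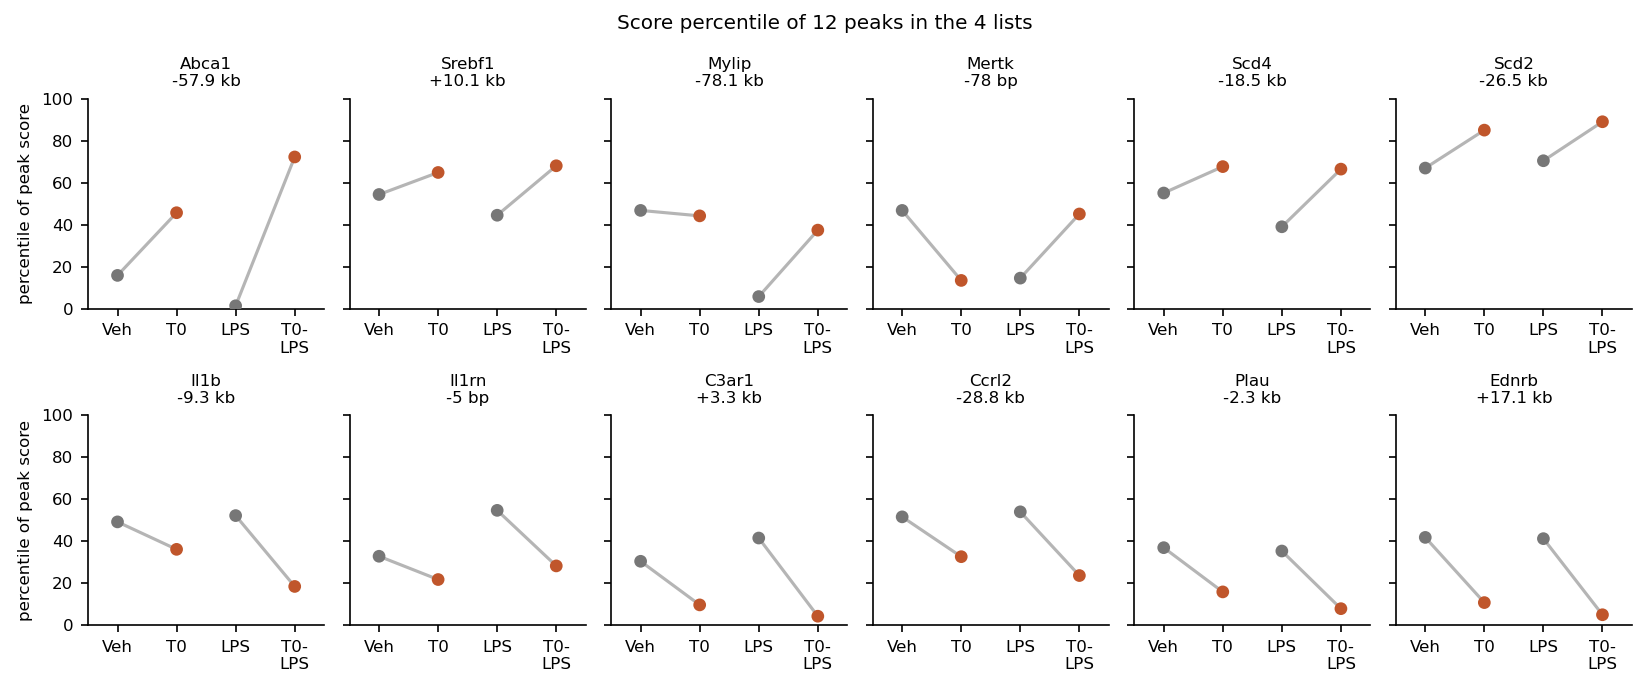
Score percentile of 12 shared peaks in each of the 4 lists, taking for each gene the peak with the largest change (position relative to the nearest TSS above the panel). Grey points are lists without and orange points lists with T0, 1 pooled value each; Mertk goes down with T0 without LPS and up with it, and the 6 peaks of the lower row are lower with T0 in both settings, as without LPS were 76.9% of all paired peaks.

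At TLR4 and NF-kB signalling genes the closed and opened shares were close to those of all peaks. Of 154 LPS peaks, 16 (10.4%, 6.50 to 16.2) were closed, against 10.1% of all, and of 143 T0-LPS peaks 5 (3.5%) were opened, against 3.44% of all. Of 137 shared peaks 2 (1.46%) were weakened, against 4.42% of all shared peaks, and none was strengthened, while among shared peaks none was weakened and 1 strengthened. These 2 were the Myd88 promoter peak (37.6 to 16.6) and an intronic peak of Ticam2 (63.3 to 42.2), both genes of TLR4 adaptors. The closed peaks lay at 12 genes, 2 each at Tnfaip3, Rel, Irak2 and Ly96, and had scores of 44 to 199, the highest at Map3k7, the kinase TAK1. At that Map3k7 peak the T0-LPS list skips a number. The median change was -2.34 points, or -0.23 among shared peaks.

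Interferon response genes had no weakened or strengthened peak among 65 shared peaks on either scale. Over all shared peaks the shares were 4.42 and 0.926%, or 2.46 and 2.11% among shared peaks, so few calls would fall to 65 peaks. The medians were -1.08 points and, among shared peaks, 1.34. Of 72 LPS peaks 6 (8.33%, against 10.1% of all) were closed. Among them were the promoter peaks of Ifnb1, the gene of interferon beta (score 166), of Gbp2, a guanylate-binding protein (138), and of Irf5 (79). None of these 3 promoter peaks was in the Veh or T0 list, as held for 26.9% of all closed and 5.82% of all LPS peaks. The other closed peaks, at Ifit2, Irf2 and Rsad2, were in the Veh list, and those at Irf2 and Rsad2 also in T0. At the Ifnb1 and Gbp2 promoters the T0-LPS list skips a number, and at Irf5 it does not.

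The balance of called peaks at AP-1 and ATF factor genes turned with the scale. Of 59 shared peaks, 5 (8.47%, against 4.42% of all shared peaks) were weakened, at Batf, Fos, Atf3, Jun and Mafk, and 2 other Atf3 peaks were strengthened (11.8 to 38.1 and 5.70 to 27.7). Among shared peaks 2 were weakened and 5 strengthened. The median was -0.06 points on the whole-list scale and 2.60 among shared peaks. Of 63 LPS peaks 3 were closed (4.76%, 1.63 to 13.1), a share that was 8.79% when all peaks within 100 kb of a member TSS were counted. Macrophage identity genes had 9 of 88 LPS peaks closed (10.2%, against 10.1% of all), 3 of them at Runx1. Of their 76 shared peaks, 2 (2.63%, against 4.42% of all) were weakened, 1 each at Cebpa (36.9 to 2.30) and Cebpb (38.9 to 14.3). Another Cebpa peak was strengthened from 4.80 to 31.2, and the median of the list was -2.26 points, or 0.31 among shared peaks.

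Genes of sterol synthesis and uptake, many of them under the control of SREBP2, had 4 of 53 LPS peaks closed (7.55%). This share was 15.9% when all peaks within 100 kb of a member TSS were counted. Of 49 shared peaks 2 (4.08%, against 4.42% of all) were weakened, among them that at the Dhcr7 promoter (28.7 to 2.30). A peak at Ch25h, which makes 25-hydroxycholesterol, an LXR ligand, was strengthened from 7.00 to 39.1, while it was lower in T0 (3.00) than in Veh (31.9). Nuclear receptor and corepressor genes had 9 of 59 LPS peaks closed (15.3%, 8.24 to 26.5, or 11.6% under that wider assignment), with 2 peaks each at Rxra, the partner of LXR, and Tbl1xr1. Housekeeping genes had 6 of 41 (14.6%, 6.88 to 28.4). The medians on the whole-list scale and among shared peaks were -0.38 and 0.46 for the sterol genes, -1.73 and -0.22 for the nuclear receptor genes and -0.13 and 2.15 for the housekeeping genes. For each of the 11 lists the interval of the closed share held the share over all assigned peaks, 10.0%.

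**Figure D5:**
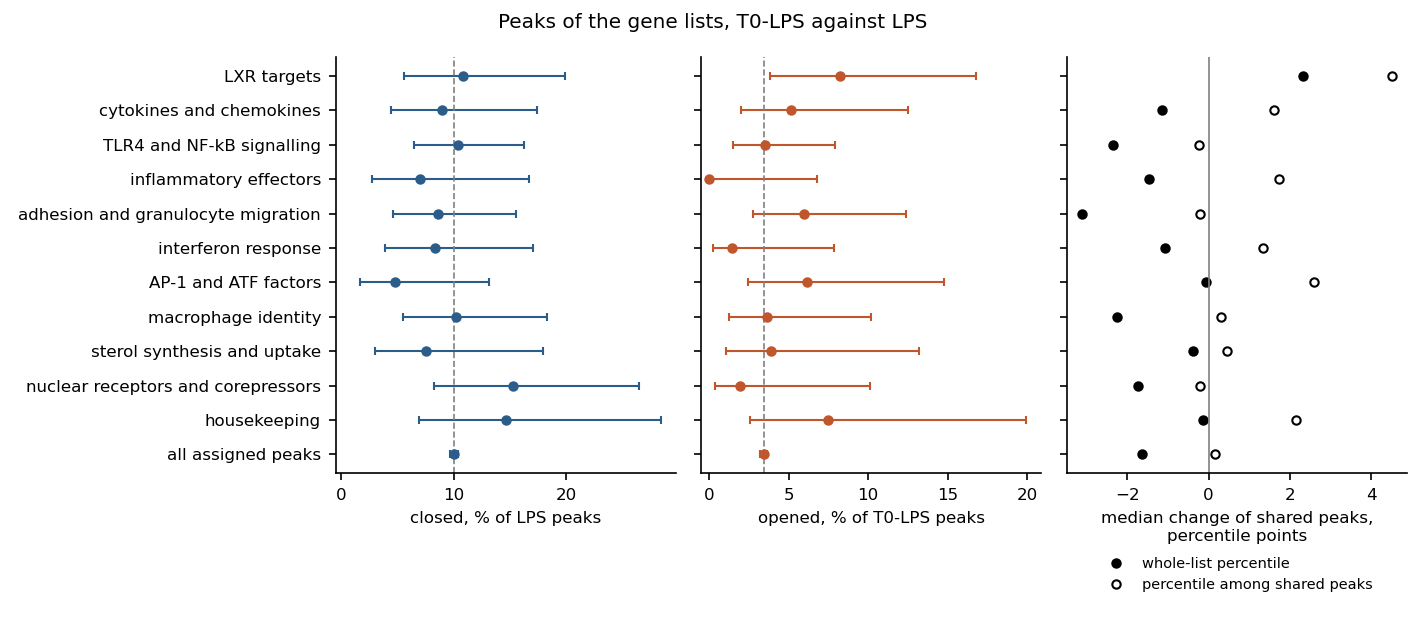
Closed share of LPS peaks, opened share of T0-LPS peaks (points with 95% Wilson intervals, dashed line for all assigned peaks) and median change of shared peaks in percentile points for 11 gene lists. LXR targets lie at 2.31 and 4.50 points, and 7 of the other lists change sign between the scales.

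Few genes lost several peaks. Of the 12549 genes with an LPS peak, 2503 had a closed peak, 428 had 2 or more and 20 had 4 or more. Mbp, the gene of myelin basic protein, had 6 of 15 LPS peaks closed, and Trak1, an adaptor of mitochondrial transport, 6 of 17. Kdm7a, a histone demethylase, had 5 of 10, Lhfpl2 5 of 17 and the transcription factor gene Foxp1 5 of 28. Nrg4, an epidermal growth factor family ligand, lost 4 of 6, Ptprs, a receptor tyrosine phosphatase, 4 of 7, Ncoa2, a nuclear receptor coactivator, 4 of 8, and Zcchc2 and Anxa2 4 of 10 each. Genes with 10 or more LPS peaks had 12.1% of them closed, against 10.0% of all assigned peaks.

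The highest number of opened peaks at any gene was 3, at 9 genes. Kcnj10, a potassium channel, had all 3 of its T0-LPS peaks opened, and Map2k6, a kinase upstream of p38, had 3 of 6. The others besides Abcg1 were Pstpip1 (3 of 7), Fgd4 (3 of 9), Rin2 (3 of 10), Rreb1 (3 of 12), Tiam1 (3 of 13) and Nrp2 (3 of 15). Drd4, a dopamine receptor, had 2 of 2. Both kinds of change met at 271 genes.

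Genes with at least 4 shared peaks were ordered by their median change on the whole-list scale. The lowest was Plau, which encodes urokinase, the activator of plasminogen. Its 4 shared peaks went from 51.5 to 31, from 35.3 to 7.80, from 46.7 to 22.6 at the promoter and from 43.4 to 24.0, and the remaining LPS peak 9.01 kb upstream was closed. All 5 Plau peaks of the LPS list were thus weaker in T0-LPS or missing from it, and the 4 shared ones had changes of -15.9 to -22.3 points among shared peaks. The promoter peak was at 34.2 in Veh and 40.4 in T0, whereas the other shared peaks were lower in T0 than in Veh.

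Ednrb, the endothelin B receptor gene, had 3 of 7 shared peaks weakened, the largest from 41.2 to 4.90 in an intron, where Veh was at 41.8 and T0 at 10.7. Its median was -17.1 points, with Trim2 at -18.2, Ank at -17.9 and Ctdp1 at -17.9. At the other end, after Scd2, stood Pdgfb, a growth factor gene, with a median of 12.7, Rassf5 with 11, Fosb with 10.8 and Lgals3bp with 10.6. Among shared peaks the order differed, with Fosb at 15.7, Rassf5 at 15 and Pdgfb at 14.8. All 5 Pdgfb peaks had changes of 0.10 to 16.7 points. The median over all 1971 gene medians was -2.30.

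The largest single losses of percentile were at distal peaks. They lay downstream of Gda, the guanine deaminase gene (53.8 to 4.90), in an intron of the potassium channel subunit gene Kcnab2 (59.7 to 12.5), in Dnm3, a dynamin gene (70.0 to 25.7), and upstream of Sel1l, a gene of protein degradation from the endoplasmic reticulum (55.9 to 12.5). Peaks at Ccl28, Camk1, Olfr694, Gli2, Dgkz and Maml2 completed the first 10, with changes of -43.3 to -41.9. The largest gains after Abca1 were in an intron of Arhgef3 (45.6 to 84.3), at Banp (19.7 to 57.7), at the Acap3 promoter (9.70 to 46.7) and at Tuba1c (13.8 to 50.6). Those at Itgav, Cartpt, Gm2174, Rgs1 and Stk10 were 33.7 to 36.0 points.

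The strongest closed peaks at which no number is skipped were at Nqo2 (score 300), Zcchc2 (279), Tpp2 (273), Ing2 (270) and Hk2, the gene of hexokinase 2 (267). The next 5, at Gcnt1, Snx29, the Rere promoter, 4930562C15Rik and Zfp217, had scores of 242 to 254. After the peak near Scd4, the strongest opened peaks of this kind were at St3gal6, the Tcf7l1 promoter, Gspt1, Tmem51, Kif13b, Prune2, Ncs1, the Chd9 promoter and Notch1, with scores of 173 to 191. Of these 20 peaks, 18 were in the Veh list, the exceptions being Gcnt1 and the opened peak near Scd4. Most peaks of either list were in Veh too. Of all LPS peaks, 84.2% were in both Veh and T0 and 9.67% in Veh alone. The same shares of all T0-LPS peaks were 87.7 and 7.71%.

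Closed peaks formed 8 runs of at least 4 with neighbours no more than 20 kb apart, and opened peaks formed none. The run at Kdm7a held 5 closed peaks among 7 LPS peaks over 32.8 kb, that at Mbp 5 of 8 over 21.2 kb, and that at the ribonuclease genes Ang, Rnase4 and Rnase12 5 of 9 over 32.6 kb. The run at Vezf1 and Srsf1 was the only one with every LPS peak closed, 4 of 4, but the T0-LPS list skips numbers at all 4. The other runs lay at Lhfpl2 (4 of 5), Slc36a1 and Slc36a2 (4 of 7), Anxa2 (4 of 7), and Anxa3 and Bmp2k (4 of 8). The peaks of these runs were weak, with scores of 48 to 191. By chromosome, closed shares spanned 9.24 to 11.3% over the autosomes and X.

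Closed peaks were more often distal. Within 1 kb of a TSS lay 24.2% of closed peaks (22.8 to 25.7) and 27.3% of opened peaks, against 36.6% of all LPS peaks. Introns held 41.1% and intergenic sequence 32.2% of closed peaks. Among the 3 lowest LPS deciles, 25% of closed and 30.6% of other peaks were at promoters, so part of the difference goes with low score. Weakened and strengthened peaks differed in position: 19.6% of weakened (17.6 to 21.9) and 43.5% of strengthened peaks (37.7 to 49.5) were at promoters, and 19.5 and 42.5% on the scale of shared peaks. Over all shared peaks 37.2% were at promoters, just below the interval of the strengthened ones. Within LPS deciles 3 to 7, 19.8% of weakened and 32.6% of other shared peaks were at promoters. Within LPS deciles 1 to 4, 38.5% of strengthened (32.3 to 45.0) and 29.3% of other shared peaks were. The median distance to a TSS was 14.8 kb for weakened and 3.80 kb for strengthened peaks, and the median GC content 49.0 and 55.0%. Over all shared peaks these medians were 6.4 kb and 53.0%.

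DR4 matches with up to 2 mismatches were in 10 of 269 strengthened peaks (3.72%, 2.03 to 6.71), 27 of 1064 opened (2.54%, 1.75 to 3.67), 70 of 3366 closed (2.08%, 1.65 to 2.62) and 23 of 1283 weakened peaks (1.79%, 1.20 to 2.68). The share was 1.92% over the LPS list, and that of the strengthened peaks was 2.61% (1.62 to 4.2) on the scale of shared peaks. With up to 1 mismatch the shares were 1.12% (3 peaks) for strengthened, 0.470% (5 peaks) for opened, 0.119% (4 peaks) for closed and 0.193% for all LPS peaks. AP-1 matches were in 16.6% of weakened peaks (14.7 to 18.7) and 8.92% of strengthened peaks (6.07 to 12.9), against 13.8% of the LPS list, but on the scale of shared peaks the shares were 15.5 and 12.9%. Within LPS deciles 3 to 7, 16.4% of weakened and 14.6% of other shared peaks held an AP-1 match. NF-kB matches were in 4.52% of weakened, 2.60% of strengthened, 4.46% of closed and 4.77% of all LPS peaks, and 2.94% of strengthened peaks on the other scale. CTCF matches were in 1.52% of closed peaks (1.15 to 1.99) and 0.817% of LPS peaks, and among the 3 lowest deciles in 1.52 and 1.19% of closed and other peaks. Both strands were searched, and a match says nothing of binding.

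The lists without LPS gave the state of the closed peaks in unstimulated cells. Of the closed peaks, 34.7% were in both the Veh and T0 lists, 37.3% in Veh alone, 1.04% in T0 alone and 26.9% in neither. Over all LPS peaks these shares were 84.2, 9.67, 0.265 and 5.82%. Of the LPS peaks found in Veh and T0, 4.18% were closed, against 39.2% of those found in Veh only and 46.9% of those in neither. These groups differ in score, with medians of 375, 134 and 126. Within the weakest LPS decile the closed shares were 34.2, 59.7 and 70.8%, within decile 2 21.3, 42.3 and 46.7%, and within decile 3 7.79, 23.2 and 28.7%. In each of these deciles, LPS peaks absent from both unstimulated lists were missing from T0-LPS more often than peaks found in both. Compared with peaks found in Veh only, the Wilson intervals were apart in the weakest decile and overlapped in deciles 2 and 3. The weakest decile spans scores of 31 to 113, so score was matched only coarsely, and each list is a single pool. Of the opened peaks, 38.0% were in Veh alone, 27.7% in neither and 1.96% in T0 alone. Opened shares of T0-LPS peaks followed the same order. Opened were 346 of 27268 found in Veh and T0 (Wilson interval 1.14 to 1.41%) and 406 of 2398 in Veh only (15.5 to 18.5%). In neither list were 1345 T0-LPS peaks, of which 296 were opened (19.9 to 24.3%). The order was thus not particular to peaks missing with T0. Median scores of these T0-LPS groups were 330, 119 and 116.

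The change with T0 in unstimulated cells comes from other libraries, those of Veh and T0. Over 25143 peaks paired 1-to-1 in all 4 lists, the change of percentile with LPS and that without had a Pearson correlation of 0.12 across peaks, and of 0.08 when ranked among these peaks, where each pair of lists comes from 2 pools. Of the weakened peaks 86.0% (83.8 to 88) were lower in T0 than in Veh, against 76.9% of all paired peaks and 74.6% of the strengthened ones. Ranked among the paired peaks, the shares were 55.6, 48.9 and 42.4%. The 61 peaks of LXR targets had a correlation of 0.38. Higher with T0 in both settings were the Abca1 peak 57.9 kb upstream, the Srebf1 peak 10.1 kb downstream and the Scd2 peaks 26.5 and 9.44 kb upstream. The Abca1 peak 10 kb inside the gene was lower in both, and the Scd2 promoter peak was lower with T0 in the LPS setting.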

How the data were processed

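ATAC-seq libraries of bone marrow-derived macrophages were analysed in 4 groups of 4 libraries. The authors trimmed reads with cutadapt, aligned them with Bowtie2 (mm10 per the labels), removed PCR duplicates with SAMtools, called peaks with MACS2 on the 4 libraries of a group together, and kept peaks at regions with enhancer marks. The deposited BED lists give each peak a score, a whole number from the peak caller. It has no stated definition in the files, and such scores usually grow with depth, which is not given in the sources used here. Lower depth in a group would usually shorten its list and lower its scores. Labels name no separate animals or cultures for the libraries.

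Lists were compared by any overlap of 1 bp (Python 3.11.15, pandas 2.3.3, numpy 2.4.6, scipy 1.17.1, pysam 0.24.0, matplotlib 3.10.9). Scores of 1-to-1 pairs were compared as mid-rank percentiles within the own list, and again among shared peaks. Peaks were assigned to the nearest protein-coding TSS of GENCODE vM21 within 100 kb, and introns and exons are those of protein-coding genes. Sequences came from RefSeq's GRCm38 assembly, and 0 peaks ran past a chromosome end. With 1 pooled list per group no test was run. Scripts recovered planted changes in simulated lists. Cxcl11 and Mx2 are not annotated as protein-coding in GENCODE vM21 and were not counted.

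Genes were named by rule: the 10 with most closed and most opened peaks, the 10 largest changes each way, the 10 strongest closed and opened peaks with no skipped number, the 5 lowest and highest gene medians, called members of the 11 gene lists, the largest runs, and genes the study discusses. Members and lists were chosen with earlier results of these data known. Some results that met these rules are not reported here.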

Additional observations from a re-analysis of the deposited data

How the results depend on the processing

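No paired analysis was possible because each list pools the 4 libraries of its group, and for the same reason no replicate could be left out. A reciprocal overlap of 50% gave 4235 closed and 2139 opened peaks. Peaks scoring no lower than their list's median numbered 64 closed and 35 opened, and peaks with no skipped number 2056 closed and 612 opened. With the LPS list cut to the length of the T0-LPS list there were 2190 closed, 1942 opened, 687 weakened and 655 strengthened peaks, a balance that equal list lengths give by construction. Ranking among shared peaks gave 714 weakened and 612 strengthened, and a limit of 30 points 177 and 23. Of the closed peaks, 16.3% lay within 500 bp of a TSS, and 28.7% within 1 kb of the TSS of any annotated gene. DR4 matches with up to 1 mismatch were in 1.12% of strengthened and 0.470% of opened peaks, and at the T0-LPS midpoint, an alternative chosen after seeing the data, in 3.35% of strengthened peaks. With a gap of 50 kb there were 30 runs of closed peaks. The closed share of each of the 11 gene lists stayed within its interval under both alternatives, although the order of the lists changed, while the median change of 7 lists changed sign between the percentile scales. The causes were not tested beyond what each alternative changes by construction. The pooled lists carry no replicate error and an unknown depth, so a weak peak missing from 1 list may lie just under that list's threshold.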
